A study of Mus musculus with 12 samples.

Results

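Testis and caput epididymidis were compared for their small RNAs at 13 months of age, within Gpx5 knockout (KO) mice and within wild-type (WT) mice. The 4 libraries were taken by their labels (testis KO, caput KO, testis WT and caput WT) out of 12 samples in the series, of which 10 are small RNA libraries. All mice were C57BL/6. KO mice lack Gpx5, a glutathione peroxidase secreted by the caput epithelium, and are labelled Gpx5-/-. Each library is 1 pool from 7 mice, so no group has a replicate, no test between groups within a genotype can be made and no p-value is given. Genotype and library cannot be told apart, and the same holds for tissue within a genotype. Per the labels' protocols, testes went straight to RNA extraction, whereas caput tissue was first punctured in saline so that spermatozoa could leave, and inserts of 18 to 40 nt were kept.

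The caput is the first stretch of the epididymis, a duct lined by secretory epithelium and wrapped in smooth muscle, through which spermatozoa leave the testis. The testis makes large amounts of piRNAs, which are small RNAs bound by PIWI proteins in meiotic and later germ cells, mostly longer than miRNAs and mostly beginning with uridine. Caput epithelium and sperm are known for 5′ fragments of tRNAs. Small RNAs that match mRNAs, snoRNAs or snRNAs can be fragments of those RNAs or, in the testis, piRNAs cut from them.

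The files listed 9834580 classified reads for KO testis and 18362642 for KO caput, and 8567091 for WT testis and 13825045 for WT caput. Of these, 1705562 and 14204834 were miRNA reads in KO testis and KO caput, and 1467790 and 7635417 in WT testis and WT caput. Among the 100 most abundant ranks of each file, 22 had no line in KO testis and 9 in KO caput, and 23 had none in WT testis and 10 in WT caput. A very low value of an abundant feature can therefore mean that a sequence is not listed. Intervals below are at 95% and cover counting error only, since PCR reads carry no molecular identifiers. A value of 0 was replaced by a floor of 3 reads, which is 0.305 RPM (reads scaled to 1000000 classified reads) in KO testis, 0.163 in KO caput, 0.350 in WT testis and 0.217 in WT caput.

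The targeted gene was read first. Fragments of Gpx5 mRNA were at 0 RPM in KO testis and 1.47 RPM in KO caput (27 reads), and at 0 RPM in WT testis and 58.7 RPM in WT caput (811 reads). The WT caput library had the most reads, and the KO caput was above the floor of 3 reads with far fewer. WT testis was 168-fold lower than WT caput, a ratio set by that floor and not an interval bound. In the KO pair the gene lay under the minimum of 10 RPM used for calls. Fragments of Lcn5, a retinoic acid binding lipocalin of the caput, were at 0.203 and 28.9 RPM in KO testis and KO caput. In WT testis and WT caput they were at 0.233 and 30.2 RPM, so this 1 transcript lay at a like level in both caput libraries. Lcn5 does not stand for caput secretory genes at large. A list of 38 such genes, Gpx5 among them, summed to 71.8 RPM in KO caput and 174 RPM in WT caput. Its 4 tested genes had a median log2 of KO over WT caput of -1.21.

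A few sequences carry the contrast and are shown here so that the values can be read against them. The miRNAs are RefSeq mature sequences with positions on GRCm38.p6, and the capitals mark the seed, bases 2 to 8. The X-linked miRNAs of meiotic germ cells come first, with miR-202-3p of Sertoli cells.
miR-881-3p: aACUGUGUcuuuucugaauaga, at chrX:66801954-66801975 on the minus strand
miR-741-3p: uGAGAGAUgccauucuauguaga, at chrX:66796809-66796831 on the minus strand
miR-871-3p: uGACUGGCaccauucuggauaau, at chrX:66810438-66810460 on the minus strand
miR-465a-5p: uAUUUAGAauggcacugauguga, at chrX:66839099-66839121 on the minus strand
miR-465b-5p: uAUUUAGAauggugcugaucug, at chrX:66835811-66835832 on the minus strand
miR-202-3p: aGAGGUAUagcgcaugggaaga, at chr7:139957695-139957716 on the minus strand

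Among miRNAs lower in testis than in caput are the miR-200 family of epithelia and the miR-10 forms of the HOX clusters. Here miR-141-3p and miR-200a-3p share a seed, miR-200c-3p and miR-429-3p share another, and so do miR-10a-5p and miR-10b-5p.
miR-141-3p: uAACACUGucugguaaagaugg, at chr6:124717917-124717938 on the minus strand
miR-200a-3p: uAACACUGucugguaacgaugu, at chr4:156054911-156054932 on the minus strand
miR-200c-3p: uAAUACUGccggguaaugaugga, at chr6:124718324-124718346 on the minus strand
miR-429-3p: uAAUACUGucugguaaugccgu, at chr4:156053916-156053937 on the minus strand
miR-10a-5p: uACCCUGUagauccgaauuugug, at chr11:96317186-96317208 on the plus strand
miR-10b-5p: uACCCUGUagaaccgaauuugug, at chr2:74726074-74726096 on the plus strand

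The 5′ fragments of tRNA-Gly are given as the files list them, and the capitals mark the 12 bases that the 30-nt fragment has and the 18-nt fragment lacks.
tRNA-Gly 18 nt: gcattggtggttcagtgg
tRNA-Gly 30 nt: gcattggtggttcagtggTAGAATTCTCGC

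The classes of small RNA differed between testis and caput in both genotypes, and for most classes by different amounts. piRNA entries took 62.8% of classified reads in KO testis and 0.655% in KO caput, a share 95.9-fold higher in testis (interval 95.4 to 96.5). In WT they took 64.1% in testis and 15.8% in caput, 4.06-fold higher in testis (4.06 to 4.07). The testis shares were thus near each other, while the WT caput share lay between the KO caput and the testes. Of the reads in the piRNA class, 84.7% in KO testis and 41.4% in KO caput were 24 to 32 nt long with a first T, against 86.3% in WT testis and 85.6% in WT caput. Only the KO caput stood apart in this length and first base.

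Reads matching mRNA made up 9.97% in KO testis and 0.844% in KO caput, 11.8-fold higher in testis (11.75 to 11.9), and 9.73% in WT testis and 3.45% in WT caput, 2.82-fold higher (2.81 to 2.83). miRNAs went the other way, with 17.3% in KO testis and 77.4% in KO caput, and 17.1% in WT testis and 55.2% in WT caput, a testis share 4.46-fold lower in KO and 3.22-fold lower in WT. tRNA fragments took 1.46% in KO testis and 19.5% in KO caput, and 1.48% in WT testis and 21.5% in WT caput. The tRNA contrast was near equal in both genotypes, 13.3-fold lower in testis in KO (13.2 to 13.4) and 14.5-fold lower in WT (14.4 to 14.6).

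On the base of classified reads, 4 small classes lay on opposite sides in KO and WT. The snRNA share was 0.272% in KO testis and 0.135% in KO caput, 2.02-fold higher in testis, against 0.123% in WT testis and 0.175% in WT caput, 1.42-fold lower in testis. The rRNA share was 1.37% in KO testis and 0.656% in KO caput, against 1.01% in WT testis and 1.18% in WT caput. Mitochondrial reads were 0.195% in KO testis and 0.0818% in KO caput, against 0.175% in WT testis and 0.257% in WT caput. For snoRNA the shares were 0.604% in KO testis and 0.490% in KO caput, against 0.423% in WT testis and 0.641% in WT caput. This change of side depended on the base. Without piRNA reads in the base, the log2 testis over caput was positive in both genotypes, at 2.43 in KO and 0.72 in WT for snRNA, 2.48 and 1.00 for rRNA, 2.67 and 0.68 for mitochondrial reads, and 1.72 and 0.63 for snoRNA. When each distinct sequence counted once, with the libraries thinned alike, the KO values of all 4 classes were negative. Without the 10 most abundant sequences of each class the KO values were -0.16 for mitochondrial reads, -0.35 for rRNA and -0.89 for snoRNA, and 0.30 for snRNA.

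**Figure D1:**
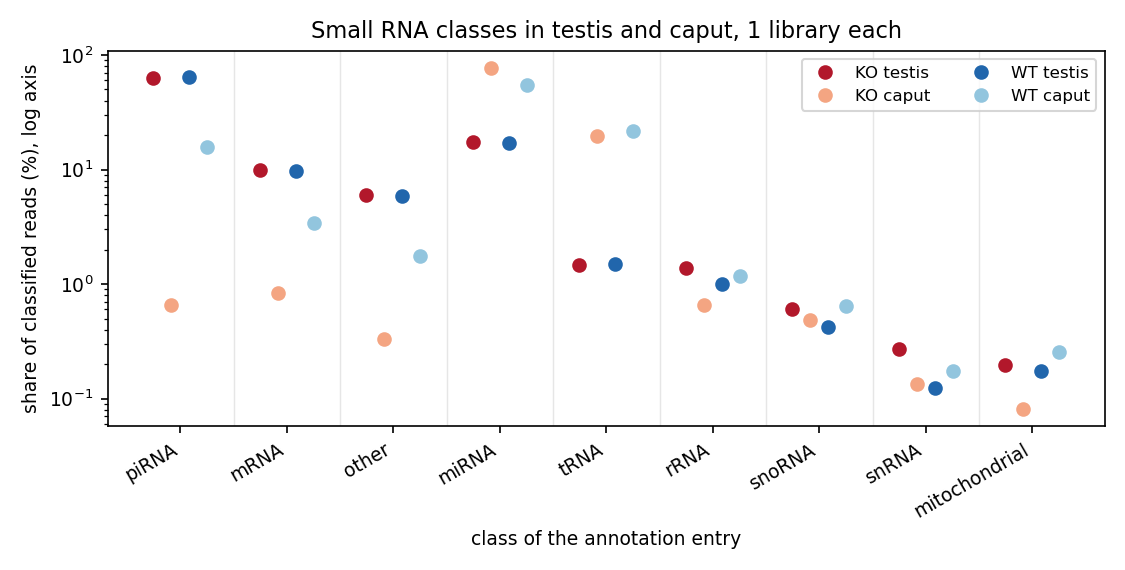
Share of classified reads (%, log axis) in each class of annotation entry, with 1 point per library in the order KO testis, KO caput, WT testis and WT caput. The piRNA points of both testes lie at 62.8% and 64.1%, the KO caput at 0.655% and the WT caput at 15.8%, while both caput libraries lie together for tRNA at 19.5% and 21.5%.

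Among miRNAs, measured in reads scaled to 1000000 miRNA reads of the library (miRNA RPM), testis was higher than caput for more names than it was lower. The 5 tested miR-200 family members and the 3 tested miR-10 forms were among those lower in testis in both genotypes. A miRNA entered a comparison with at least 100 miRNA RPM in a library of the pair, and was called at a ratio of at least 2-fold whose interval left out 1. In KO, 108 of 156 miRNAs (69.2%) were higher in testis and 19 (12.2%) lower, 127 (81.4%) in all, with a median log2 of 2.14. In WT, 89 of 168 (53%) were higher and 29 (17.3%) lower, 118 (70.2%) in all, with a median of 1.20. Caput libraries give much of their miRNA reads to a few names, so the scaling matters here: TMM factors moved every log2 down by 2.08 in KO and 1.34 in WT. On that scale 57 miRNAs were higher and 49 lower in KO, and 50 higher and 55 lower in WT.

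The 2 genotypes named the same side for most calls. Of the miRNAs called in both, 80 were higher in testis in both, 17 lower in both and 3 higher in KO and lower in WT. A difference between genotypes, KO minus WT, was called at 1 or more on the log2 scale with its interval leaving out 0. It was positive for 88 of 171 miRNAs (51.5%) and negative for 7 (4.09%), 95 (55.6%) in all, against 53 positive and 20 negative under TMM and 51 positive and 26 negative under median of ratios. Of these 88, the KO caput level was at least 2-fold lower than the WT caput level in 66, and the KO testis level at least 2-fold higher than WT testis in 10.

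The miRNAs of spermatogenic cells, the miR-34 and miR-449 families and an X-linked cluster, made the largest block of these differences. From a list of 21 names, 35 mature forms were listed and 24 passed the minimum in some library. In KO all 23 tested were higher in testis, with a median log2 of 8.14 over the 24. In WT 20 of 23 were higher, 1 was lower and the median was 3.50. The difference was called positive for all 24, at a median of 4.65, beside 51.5% of all miRNAs, for which the median was 1.06. Summed with no minimum, the 35 forms had 185895 miRNA RPM in KO testis and 644 in KO caput, and 110591 in WT testis and 16169 in WT caput.

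miR-34c-5p, a miRNA of spermatocytes and spermatids, had 87775 miRNA RPM in KO testis and 417 in KO caput, and 65609 in WT testis and 5148 in WT caput. Both testes were high, the WT caput was intermediate and the KO caput low. The testis level was 211-fold higher in KO (205 to 216) and 12.7-fold higher in WT (12.6 to 12.9), a log2 difference of 4.05 (4.005 to 4.09).

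The X-linked miRNAs showed the same order of libraries. miR-881-3p had 12371 miRNA RPM in KO testis and 33.2 in KO caput, and 10421 in WT testis and 629 in WT caput. miR-741-3p had 5297 in KO testis and 18.9 in KO caput, and 6007 in WT testis and 740 in WT caput. miR-465c-5p had 4720 in KO testis and 11.6 in KO caput, and 4313 in WT testis and 414 in WT caput. Their log2 testis over caput was 8.54, 8.13 and 8.67 in KO, against 4.05, 3.02 and 3.38 in WT. With miR-34c-5p, these 4 miRNAs were 211-fold to 406-fold higher in testis in KO and 8.12-fold to 16.6-fold higher in WT.

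Within the miR-465 family the forms named here were higher in testis in both genotypes, and by more in KO. Their differences were not equal, at 4.16 for miR-465a-5p and 6.06 for the 3p forms. miR-465a-5p and miR-465b-5p, which share the seed AUUUAGA, were higher in testis by log2 7.85 and 8.54 in KO, against 3.68 and 3.84 in WT. The 3p forms of miR-465a, b and c have 1 sequence and were counted as 1 name, with 4389 miRNA RPM in KO testis and 6.83 in KO caput, and 2072 in WT testis and 216 in WT caput. miR-880-3p of the same chromosome had log2 values of 8.25 in KO and 4.09 in WT.

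For 2 members of the X-linked cluster the WT testis was not high when counted by name. By name, miR-871-3p had 49636 miRNA RPM in KO testis and 48.8 in KO caput, but 929 in WT testis and 6651 in WT caput. This count was 7.16-fold lower in WT testis than in WT caput (6.78 to 7.56), and it did not hold at other starts. At its other first bases, 1 to 3 nt from the usual one, miR-871-3p had 3588 miRNA RPM in KO testis and 2.82 in KO caput. There it had 13866 in WT testis, the highest library, and 222 in WT caput, a log2 of 10.32 in KO and 5.97 in WT. miR-743b-3p had 2476 in KO testis and 14.1 in KO caput, and 518 in WT testis and 304 in WT caput, a log2 of 7.46 in KO and 0.77 in WT. At other first bases it gave 5.86 in KO and 0.41 in WT, so its small WT contrast was seen at both kinds of start, unlike that of miR-871-3p. Over all miRNAs with both kinds of count, usual and other first bases were 4-fold or more apart in 31 of 169 for the KO contrast, 26 for the WT contrast and 34 for the difference.

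miR-202-3p, known from Sertoli cells of the testis, had 633 miRNA RPM in KO testis and 0.211 in KO caput (3 reads), and 602 in WT testis and 47.0 in WT caput. Its ratio was 2998 in KO, with an interval of 1023 to 14562, and 12.8 in WT (11.3 to 14.5). Its WT ratio was close to the 12.7 of miR-34c-5p, and the KO caput was again the lowest library.

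**Figure D2:**
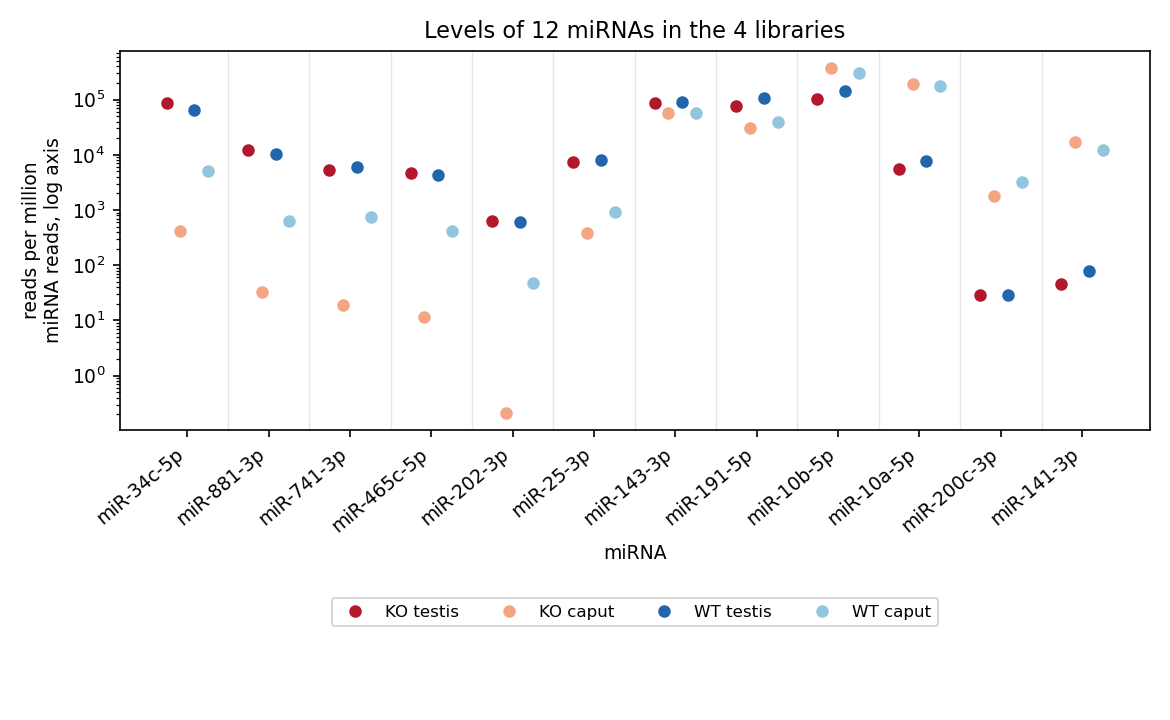
Level of 12 miRNAs (miRNA RPM, log axis) with 1 point per library in the order KO testis, KO caput, WT testis and WT caput. For miR-34c-5p to miR-202-3p both testes are high, the WT caput lies between and the KO caput is lowest, as at 87775, 417, 65609 and 5148 for miR-34c-5p. For miR-10b-5p to miR-141-3p both caput libraries lie together above both testes.

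The epithelial miR-200 family was lower in testis throughout, and here the genotypes lay near each other. All 5 tested members were lower in testis in KO and in WT, with median log2 values of -3.71 and -4.12. Of all tested miRNAs, 12.2% were lower in KO testis and 17.3% in WT testis. miR-141-3p had 46.3 miRNA RPM in KO testis and 16931 in KO caput, and 79.0 in WT testis and 12344 in WT caput, 366-fold lower in KO testis (293 to 462) and 156-fold lower in WT testis (130 to 189). It was the member whose contrast differed, by -1.23 (-1.64 to -0.81), but by 0.26 at its other first bases. miR-200c-3p had 29.3 in KO testis and 1821 in KO caput, and 29.3 in WT testis and 3198 in WT caput, with a difference of 0.81 (0.22 to 1.40). miR-200a-3p and miR-429-3p were lower in testis by log2 values of -3.22 and -2.61 in KO, against -3.61 and -2.77 in WT.

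Of the HOX cluster miRNAs, miR-10b-5p and miR-10a-5p were the most abundant miRNAs of the caput. miR-10b-5p had 101020 miRNA RPM in KO testis and 373093 in KO caput, and 143939 in WT testis and 303380 in WT caput, 3.69-fold lower in KO testis and 2.11-fold lower in WT testis. miR-10a-5p had 5513 in KO testis and 194366 in KO caput, and 7745 in WT testis and 173197 in WT caput, 35.3-fold lower in KO testis (34.6 to 36.0) and 22.4-fold lower in WT testis (21.95 to 22.8). Both lay within 1 log2 unit between genotypes, with differences of -0.81 and -0.66. All 3 tested members of the miR-10 and miR-196 list were miR-10 forms and were lower in testis in both genotypes, beside 12.2% of all miRNAs in KO and 17.3% in WT. Among them miR-10a-3p entered through caput alone. The miR-196 forms lay under the minimum. miR-196a-5p had 12.3 miRNA RPM in KO caput and 14.7 in WT caput, with a log2 of 1.56 in KO and 0.53 in WT. For miR-196b-5p the log2 was 0.24 in KO and -1.11 in WT.

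**Figure D3:**
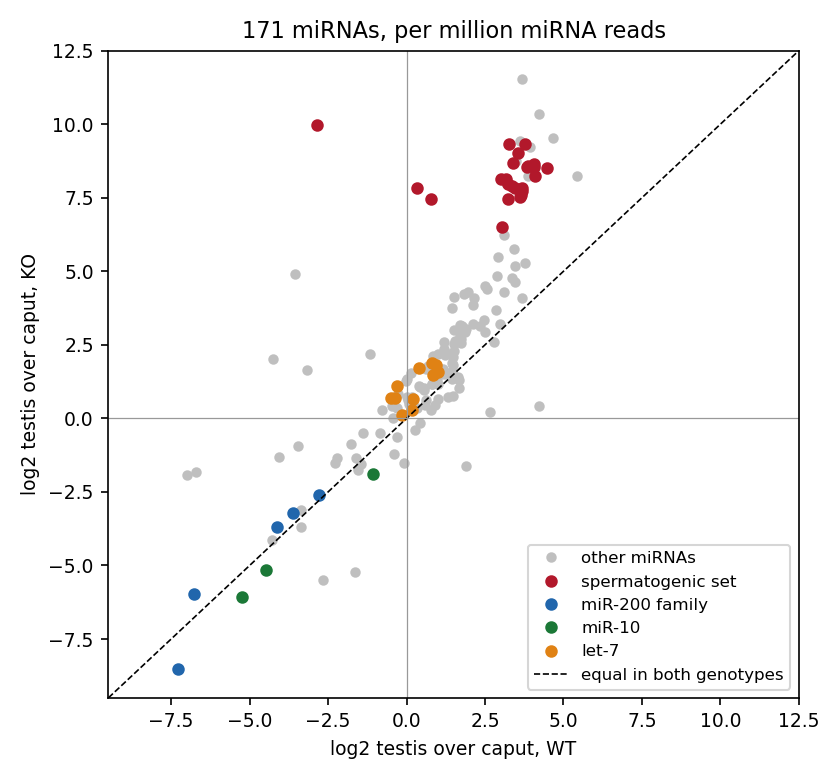
Log2 testis over caput in WT (x axis) and KO (y axis) for 171 miRNAs, each point 1 miRNA, with 4 lists in colour and a dashed line where the genotypes are equal. The spermatogenic set lies far above the line, at medians of 8.14 in KO and 3.50 in WT, while the miR-200 family and the miR-10 forms lie near it.

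Other families are set beside the shares over all miRNAs, 69.2% higher in KO testis and 53% higher in WT testis. Of 11 tested let-7 forms, 6 were higher in testis in KO and 0 in WT. For let-7a-5p the log2 was 1.72 in KO and 0.40 in WT, while TMM scaling gave -0.35 in KO. Of the miR-17-92 family and its relatives, 9 of 10 were higher and 1 lower in testis in KO, and 8 higher and 1 lower of 10 in WT. miR-25-3p of this group had 7316 miRNA RPM in KO testis and 376 in KO caput, and 8035 in WT testis and 935 in WT caput, a log2 of 4.28 in KO and 3.10 in WT. miR-93-5p was higher by 3.01 in KO and 1.64 in WT, where classified reads as the base gave -0.05. From the imprinted Dlk1-Dio3 region 3 of 3 tested were higher in KO, and 4 higher and 2 lower of 6 in WT, among them miR-541-5p at 4.40 and 2.57 and miR-409-3p at 5.74 and 3.43.

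Smaller lists had few tested members. The miR-30 family had 3 higher and 2 lower of 8 in KO, and 2 higher and 2 lower of 8 in WT. The miR-29 family had 1 higher and 1 lower of 3 in KO, and 1 higher and 0 lower in WT. Of the other epithelial names, both tested were higher in testis in KO and 1 in WT, including the keratinocyte miRNA miR-203-3p at log2 3.14 and 2.34. The muscle list had 0 called of 3 in both genotypes, and the leukocyte list had 0 called of 2 in KO and of 3 in WT. Of both endothelial forms, 0 were called in KO and 1 was lower in WT.

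miR-143-3p, an abundant miRNA of smooth muscle, had 88496 miRNA RPM in KO testis and 57407 in KO caput, and 88611 in WT testis and 56988 in WT caput. Its log2 testis over caput was 0.62 in KO and 0.64 in WT, near each other on the base of miRNA reads, while TMM scaling gave -1.45 in KO and -0.70 in WT. The widely expressed miR-191-5p was higher in testis by log2 1.35 in KO and 1.45 in WT, with TMM scaling giving -0.73 in KO and classified reads as the base -0.81 in KO and -0.24 in WT. miR-22-3p was higher by 2.58 in KO and 1.74 in WT.

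Some miRNAs differed between genotypes with a single library standing apart. miR-148a-3p had 891 miRNA RPM in KO testis and 33474 in KO caput, and 10844 in WT testis and 33749 in WT caput, with the KO testis low and both caput libraries equal. At its other first bases it gave -1.47 in KO and -1.12 in WT, where the values by name were -5.23 and -1.64. miR-183-5p had 27.0 in KO testis and 1222 in KO caput, and 247 in WT testis and 1564 in WT caput. miR-27b-3p had 55.1 in KO testis and 209 in KO caput, and 49.7 in WT testis and 6385 in WT caput, with only the WT caput high by name, and gave -0.07 in KO and 0.11 in WT at its other first bases. miR-125a-5p had 1675 in KO testis and 4833 in KO caput, and 3338 in WT testis and 3514 in WT caput, lower in KO testis by log2 -1.53, which was 1.05 at its other first bases.

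The erythroid miR-486-5p, the only tested name of its list, had 1010 miRNA RPM in KO testis and 221 in KO caput, and 168 in WT testis and 376 in WT caput. It was higher in KO testis by log2 2.19 and lower in WT testis by -1.17, where its other first bases gave 1.28. miR-99b-5p had 120 in KO testis and 89.1 in KO caput, and 2188 in WT testis and 117 in WT caput, and miR-15b-5p had 56.3 in KO testis and 48.4 in KO caput, and 1269 in WT testis and 203 in WT caput. For both, the WT testis alone was high by name. At other first bases miR-99b-5p gave 0.83 in KO and -3.65 in WT, and miR-15b-5p gave 4.64 and 2.52.

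tRNA fragments were counted by the amino acid that their start sequence matches, in RPM of classified reads, with a minimum of 10 RPM. This assigned 67.0% of tRNA reads in KO testis and 96.9% in KO caput, and 69.7% in WT testis and 97.0% in WT caput. Plus-strand tRNA reads left unassigned were at 3105 RPM in KO testis and 4024 in KO caput, and 2786 in WT testis and 5421 in WT caput. Minus-strand reads were at 1721 and 1912 RPM in KO testis and KO caput, and 1707 and 1077 in WT testis and WT caput. The calls below hold for the assigned 5′ fragments. In KO 10 of 13 amino acids (76.9%) were lower in testis and 0 (0%) higher, with a median log2 of -2.33. Without piRNA reads in the base 2 were higher and 6 lower in KO, and with miRNA reads as the base 3 higher and 6 lower. In WT 11 of 13 (84.6%) were lower and 0 (0%) higher, with a median of -3.24, against 1 higher and 8 lower, and 1 higher and 7 lower, on those bases. The difference between genotypes was called for 3 of 13 (23.1%), all positive, and for none of them was the KO caput 2-fold lower than the WT caput. The median difference was 0.21, the smallest of the 5 classes compared by feature on the bases used here. This rank depends on scaling, as miRNAs had a base of their own. Median of ratios moved every miRNA log2 down by 2.15 in KO and 1.21 in WT.

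tRNA-Gly, the most abundant, had 5298 RPM in KO testis and 126439 RPM in KO caput, and 5882 RPM in WT testis and 137093 RPM in WT caput. It was 23.9-fold lower in KO testis (23.7 to 24.1) and 23.3-fold lower in WT testis (23.1 to 23.5). tRNA-Val had 3518 RPM in KO testis and 55578 in KO caput, and 3506 in WT testis and 64037 in WT caput, 15.8-fold and 18.3-fold lower. For both, the 2 testes were alike and the 2 caput libraries were alike.

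tRNA-Lys was 11.2-fold lower in KO testis and 10.5-fold lower in WT testis, and tRNA-Cys 14.8-fold and 14.7-fold. tRNA-His was 8.94-fold lower in KO testis and 9.43-fold lower in WT testis. Counting its reads on both strands of the entry gave 546 RPM in KO testis and 3164 in KO caput, and 546 in WT testis and 2014 in WT caput. tRNA-Glu had the largest contrast, 73.7-fold lower in KO testis (43.0 to 139) and 146-fold lower in WT testis (94.5 to 239), on 13 and 20 testis reads.

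The 3 amino acids whose contrast differed were Ala, Gln and Pro, each with a higher log2 in KO than in WT. tRNA-Ala had 157 RPM in KO testis and 123 in KO caput, and 121 in WT testis and 228 in WT caput, a difference of 1.27 (1.13 to 1.41). tRNA-Gln had 62.9 in KO testis and 159 in KO caput, and 37.3 in WT testis and 217 in WT caput, a difference of 1.20. Its KO value of -1.34 and that of tRNA-Met, -1.20, became 0.08 and 0.22 without piRNA reads in the base. tRNA-Leu, lower in WT testis by -1.33, gave 0.36 with miRNA reads as the base, and tRNA-SeC, lower by -1.53 in both genotypes, gave 0.63 in KO and 0.16 in WT. tRNA-Pro differed by 1.40 (0.87 to 1.93) and tRNA-Asn was called in neither genotype, at 0.98 in KO and 0.79 in WT.

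The fragments of tRNA-Gly differed in length as well as in amount. Fragments of 18 to 24 nt made up 87.1% of them in KO testis and 48.8% in KO caput, and 88.4% in WT testis and 51.8% in WT caput. Fragments of 30 to 34 nt made up 11.9% in KO testis and 49.6% in KO caput, and 10.5% in WT testis and 46.4% in WT caput. The 30-nt fragment shown above was 113-fold lower in KO testis (110.1 to 117) and 120-fold lower in WT testis (116 to 124). The 18-nt fragment was 16.0-fold lower in KO testis (15.8 to 16.2) and 15.3-fold lower in WT testis (15.2 to 15.5). As 18 nt is the shortest insert kept, shorter fragments were not measured.

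For tRNA-Val the long fragments dominated everywhere, with 96.1% of fragments at 30 to 34 nt in KO testis and 99.6% in KO caput, and 97.4% in WT testis and 99.6% in WT caput. Its 33-nt fragment was 18.5-fold lower in KO testis and 19.2-fold lower in WT testis. The share of long fragments thus differed by tissue far more for tRNA-Gly than for tRNA-Val.

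**Figure D4:**
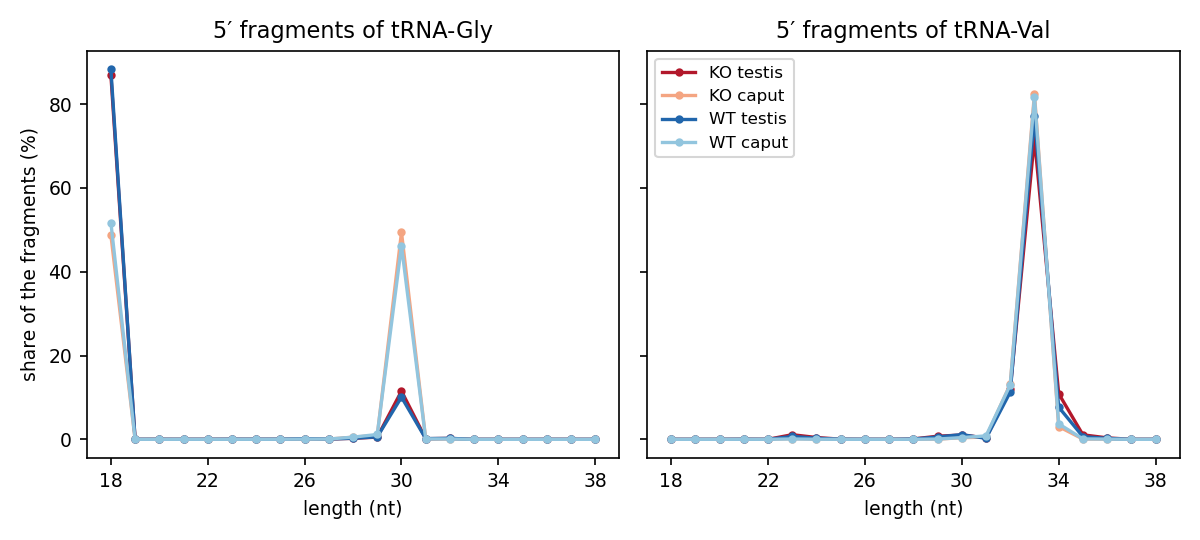
Share of the 5′ fragments (%) at each length (nt) for tRNA-Gly and tRNA-Val, with 1 line per library. For tRNA-Gly both testes peak at 18 nt and both caput libraries have peaks at 18 and 30 nt, while for tRNA-Val all 4 libraries peak at 33 nt.

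snoRNA fragments, which come from RNAs that guide modification of rRNA and snRNA, changed side between genotypes. In KO 30 of 86 (34.9%) were higher in testis and 3 (3.49%) lower, 33 (38.4%) in all, with a median log2 of 0.56. In WT 4 of 83 (4.82%) were higher and 32 (38.6%) lower, 36 (43.4%) in all, with a median of -0.74. With classified reads less piRNA as the base, 76 were higher and 0 lower in KO, and 25 higher and 7 lower in WT, and with miRNA reads as the base 83 higher and 0 lower in KO, and 38 higher and 3 lower in WT. The WT direction thus turned with the base. The difference between genotypes was called for most: 56 of 92 (60.9%) were positive and 1 (1.09%) negative, 57 (62%) in all, at a median of 1.498. The KO testis level was at least 2-fold above WT testis in 37 of these 56, and the KO caput at least 2-fold below WT caput in 16.

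Over all snoRNAs tested, 34.9% were higher in KO and 38.6% lower in WT, and the kinds were counted on the base of classified reads alone. Of box C/D snoRNAs, 19 of 64 tested were higher and 2 lower in KO testis, against 1 higher and 24 lower in WT testis. Of 8 H/ACA snoRNAs, 4 were higher in KO testis and 0 lower, against 2 higher and 1 lower in WT testis. Of 4 tested scaRNAs 1 was lower in KO testis and 2 in WT testis. SNOU109 had the largest mean contrast among snoRNAs of at least 20 RPM, at 20.8 RPM in KO testis and 0.327 in KO caput, and 13.7 in WT testis and 3.18 in WT caput, 63.8-fold higher in KO (28.8 to 176) and 4.29-fold higher in WT (3.01 to 6.22). U3, which acts in processing of pre-rRNA, had 112 RPM in KO testis and 36.9 in KO caput, and 73.3 in WT testis and 60.8 in WT caput, a log2 of 1.596 in KO and 0.27 in WT.

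The lowest mean contrast was that of an entry known only by its GenBank number, with 25 reads in KO testis and 115 in KO caput, and 3 in WT testis and 2672 in WT caput, a WT ratio 552 times lower (189 to 2678) and a difference of 7.81. Its KO log2 was -1.30, with both KO libraries under the RPM minimum for a call, and the WT testis and WT caput libraries stood furthest apart. Among named snoRNAs lower in testis, SNORD27 was at -2.35 in KO and -1.77 in WT, and SNORD81 at -1.27 in KO and -1.95 in WT, where the KO value of SNORD81 became 0.15 without piRNA reads in the base. SNORD75 had 64.4 RPM in KO testis and 94.9 in KO caput, and 21.6 in WT testis and 119 in WT caput, with the WT testis the low library. SNORA16 had 23.3 in KO testis and 25.1 in KO caput, and 5.84 in WT testis and 41.6 in WT caput. SNORD13 differed by 2.86 (2.33 to 3.39), with log2 values of 2.18 in KO and -0.68 in WT. The imprinted snoRNA repeats had 1 tested member of 5 listed, called in neither genotype at 0.84 in KO and 0.96 in WT.

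snRNA fragments, from the RNAs of the spliceosome, were higher in testis in KO, and in WT 5 of 7 had a log2 above 0 and 2 below. All 7 U types were higher in KO testis (100%), with a median log2 of 2.11. In WT 0 of 7 (0%) were higher and 2 (28.6%) lower, with a median of 0.41. Without piRNA reads in the base, 5 were higher and 0 lower in WT. The difference was positive for 6 of 7 (85.7%), U6 being the exception at 0.83. U1 had 247 RPM in KO testis and 99.8 in KO caput, and 134 in WT testis and 275 in WT caput. Its log2 was 1.31 in KO and -1.03 in WT, where the base without piRNA gave 0.20. U11 of the minor spliceosome had 24.4 in KO testis and 5.66 in KO caput, and 8.75 in WT testis and 18.1 in WT caput, a log2 of 2.11 in KO and -1.05 in WT, where that base gave 0.18.

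A single kind of fragment made up much of U2 in KO testis. U2 had 1931 RPM in KO testis and 148 in KO caput, and 493 in WT testis and 354 in WT caput, 13.0-fold higher in KO testis (12.52 to 13.6) and 1.39 times the caput level in WT (1.33 to 1.45). Reads at the commonest start had 1260 RPM in KO testis and 0.272 in KO caput, and 20.3 in WT testis and 6.00 in WT caput. The most abundant of them is shown because it makes up most of that signal.
U2 31 nt: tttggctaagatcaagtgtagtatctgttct
It had 9114 reads in KO testis and 3 in KO caput, and 120 in WT testis and 64 in WT caput. It has the length and first base of the piRNA reads above and was high in the KO testis alone. The other U2 reads were at 672 RPM in KO testis and 148 in KO caput, and 472 in WT testis and 348 in WT caput, 4.54-fold higher in KO testis (4.34 to 4.75) and 1.36 times the caput level in WT.

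U4 had 65.4 RPM in KO testis and 12.47 in KO caput, and 51.8 in WT testis and 32.6 in WT caput, and U5 had 119 in KO testis and 33.5 in KO caput, and 55.3 in WT testis and 45.2 in WT caput. For U4 the KO caput was the low library, while for U5 the KO testis was the high one. U12 was higher in KO testis by log2 2.13, with 0.78 in WT.

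Of the 5 classes compared by feature, mRNA entries had the largest median contrast in KO and the largest median difference between genotypes. In KO 749 of 774 mRNA entries (96.8%) were higher in testis and 15 (1.94%) lower, 764 (98.7%) in all, with a median log2 of 6.94. In WT 737 of 798 (92.4%) were higher and 32 (4.01%) lower, 769 (96.4%) in all, with a median of 2.01. An entry was tested if either library of the pair reached 10 RPM, so every entry called higher had passed this minimum in testis. These shares and medians thus describe mostly entries abundant in testis, not the mRNA class. The share of all mRNA reads was 11.8-fold higher in KO testis and 2.82-fold higher in WT testis. The difference was positive for 834 of 874 (95.4%) and negative for 2 (0.229%), 836 (95.7%) in all, at a median of 4.83. Of the 834, the KO caput was at least 2-fold below the WT caput in 825, and the KO testis at least 2-fold above the WT testis in 16. The median of KO over WT was -4.81 between caput libraries and 0.02 between testes.

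The 5 entries with the largest mean contrast, all known only by a GenBank number, had 0 to 3 reads each in KO caput and log2 values of 1.88 to 3.31 in WT. Nemp1, which encodes a nuclear envelope protein, had the most such reads in both testes among entries with a gene symbol. It had 3384 RPM in KO testis and 9.86 in KO caput, and 3492 in WT testis and 916 in WT caput. The testes were alike, and the KO caput was far below the WT caput. Asb1, encoding an ankyrin repeat protein, had 1767 in KO testis and 3.54 in KO caput, and 1665 in WT testis and 434 in WT caput. Ddx19b, encoding an RNA helicase of mRNA export, had 1076 in KO testis and 2.45 in KO caput, and 1122 in WT testis and 239 in WT caput. With 1700006A11Rik and Wdfy3 these genes were chosen for their level after their values were seen. Over the 5, testis was 343-fold to 534-fold higher in KO and 3.81-fold to 5.87-fold higher in WT.

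mRNA reads other than those of 24 to 32 nt with a first T gave a contrast of the same direction. With any first base, reads of 24 to 32 nt were 83.0% of the mRNA class in KO testis and 28.0% in KO caput. They were 83.2% in WT testis and 67.9% in WT caput, so reads kept here could still have the length of piRNAs. Of mRNA class reads, 56.0% in KO testis and 5.26% in KO caput were 24 to 32 nt long with a first T, and 60.0% in WT testis and 45.7% in WT caput. Entries with at least 80% of such reads in testis numbered 174, with median log2 values of 7.11 in KO and 2.06 in WT. The 243 entries with under 50% had medians of 6.54 in KO and 1.99 in WT, and 212 of them had a positive difference. Left without any such reads, 284 entries were higher and 17 lower in KO testis, and 248 higher and 32 lower in WT testis. The counts do not separate fragments of mRNA from piRNAs that match an mRNA entry.

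Lists of genes had few members past the minimum. Of genes of meiosis and the piRNA pathway 22 of 23 were listed and 2 tested. Piwil2, a PIWI protein that binds piRNAs, had 14.0 RPM in KO testis and 0 in KO caput, and 10.9 in WT testis and 3.04 in WT caput. It was 3.57-fold higher in WT testis. Its KO ratio of 85.9 was set by the floor of 3 reads in KO caput and is not an interval bound. Hspa2, a heat shock protein of spermatocytes, had 16.8 in WT testis and 2.46 in WT caput. Summed, this list had 56.8 RPM in KO testis and 0.654 in KO caput, where 15 of 22 genes were at 0, and 57.1 in WT testis and 14.2 in WT caput, where 1 was at 0.

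The spermatid list had 0 of 25 genes past the minimum, with sums of 26.1 RPM in KO testis and 2.23 in KO caput, and 23.0 in WT testis and 5.79 in WT caput. Leydig cell genes had sums of 2.14 in KO testis and 0 in KO caput, and 2.10 in WT testis and 0.434 in WT caput, and Sertoli cell genes were at 1.42 in KO testis and 0.109 in KO caput, and at 0.584 in WT testis and 0.723 in WT caput. These are sums of 2 to 21 reads in 6 and 7 listed genes, apart from the Leydig list in KO caput with none, and were not tested. Of widely expressed genes 1 of 12 was tested, the ferritin heavy chain Fth1, at 34.8 RPM in KO testis and 1.797 in KO caput, and 32.7 in WT testis and 7.81 in WT caput.

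Secretory genes of the caput ran the other way. Of 38 genes 34 were listed, and all 3 tested in KO and all 4 tested in WT, Gpx5 among the latter, were lower in testis. Of all tested mRNA entries, 1.94% were lower in KO testis and 4.01% in WT testis. The whole list summed to 3.97 RPM in KO testis and 3.74 in WT testis, so no member could reach the minimum of 10 RPM there. Its tested genes entered through caput, and their direction was set by that minimum. With no minimum, the list summed to 71.8 RPM in KO caput and 174 in WT caput. Lcn5 was 142-fold lower in KO testis and 130-fold lower in WT testis, on 2 testis reads each, with intervals of 39.2 to 1177 and 35.6 to 1073. Spag11b, a defensin-like secreted protein, was at 0.203 RPM in KO testis and 13.5 in KO caput, and 0.817 in WT testis and 30.02 in WT caput. Adam7, an epididymal membrane protein, was at 0 in KO testis and 11.6 in KO caput, and 0 in WT testis and 27.8 in WT caput. With the floor of 3 reads in testis it was 38.03-fold lower in KO testis and 79.5-fold lower in WT testis. Rab8b, a small GTPase of vesicle traffic, was lower in testis by log2 -5.83 in KO and -4.87 in WT.

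**Figure D5:**
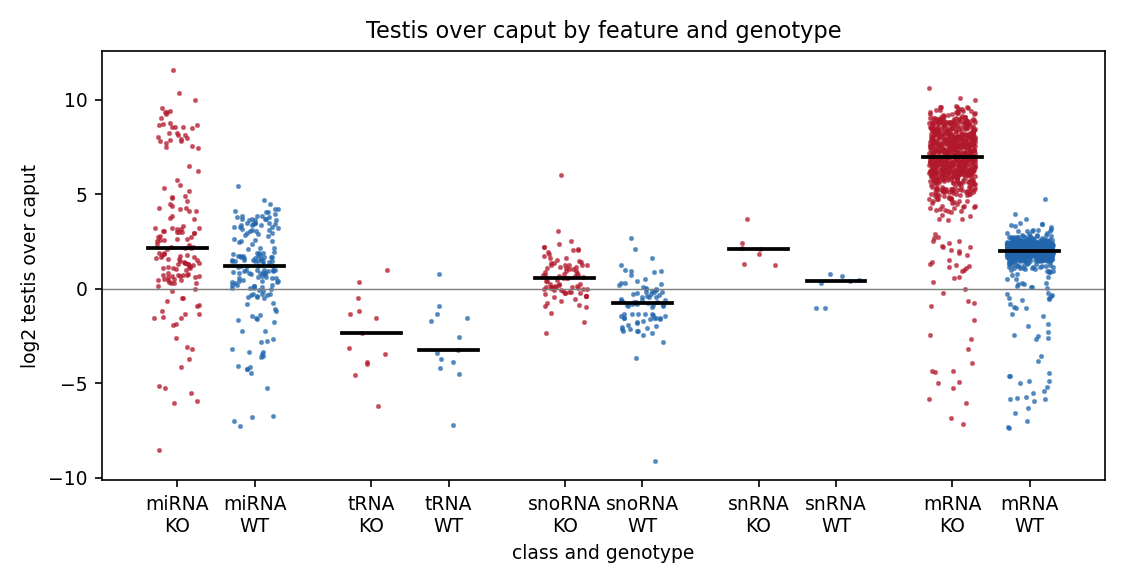
Log2 testis over caput for each tested feature, by class and genotype, with 1 point per feature and a bar at the median. The mRNA entries lie around 6.94 in KO and 2.01 in WT, the tRNA medians are at -2.33 and -3.24, and the snoRNA medians lie on opposite sides of 0 at 0.56 and -0.74, a split that turns with the base used.

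To read the genotype differences against the piRNA reads of the WT caput, the WT testis profile was subtracted from the WT caput. It was scaled so that its 24 to 32 nt piRNA reads with a first T match those of WT caput, that is by 39.4% of the WT testis reads. Nothing was subtracted from the KO caput, which had 49782 such reads against 1867399 in WT caput. The differences after subtraction thus set a reduced WT caput against an unreduced KO caput. Of 836 mRNA differences, 300 were still called, 374 had no WT caput reads left, and among entries with reads left the median difference was 2.21, against 4.91 before. Of 95 miRNA differences 62 were still called and 14 had no reads left. The difference of miR-34c-5p became -0.68, that of miR-465a-5p -0.95 and that of miR-25-3p -0.23, while miR-881-3p, miR-465b-5p and miR-880-3p had no reads left. Other differences were still positive, at 3.85 for miR-741-3p, 3.15 for miR-465c-5p and 4.30 for the 3p forms of miR-465. That of miR-202-3p fell from 7.87 to 2.93 and rests on few WT caput reads left. Before the subtraction the 2 miR-202 forms had 369 reads in WT caput, 891 in WT testis and 4 in KO caput. Those of miR-871-3p and miR-743b-3p moved little, to 12.93 and 6.60.

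Of the smaller classes, all 3 tRNA differences, 53 of 57 snoRNA differences and 5 of 6 snRNA differences were still called, and the tRNA differences numbered 6 after subtraction, with a median of 0.59 against 0.21 before. Most called differences of mRNA entries and part of those of miRNAs were thus no longer called after the subtraction. Most of those of tRNAs, snoRNAs and snRNAs were still called. A feature whose WT caput reads were at most 39.4% of its WT testis reads had none left by construction. The intervals also leave out the error of the subtraction. The counts therefore do not settle which differences go with testis-like reads of the WT caput pool. What put such reads in the WT caput, and whether they follow the genotype, was not tested. With 1 pool per group, genotype and pool cannot be told apart.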

How the data were processed

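Small RNA of 4 pooled libraries, 1 per group, was analysed. The deposited files give whole-number read counts per distinct sequence with an annotation class and entry; TopHat2, Bowtie 0.12.7 and mm9 are named in the submitters' processing notes, and which tool made which count is not given in the sources used here. Up to 2 mismatches to an entry occur in the files. Some of the 100 highest ranks have no line in a file.

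From these counts, plus-strand reads were summed by miRNA name (9 merged names) and by tRNA amino acid, snRNA, snoRNA and mRNA entry. An amino acid was assigned from bases 4 to 15 of the tRNA start with at most 1 mismatch. Identical sequences that the files give to different entries were counted to the same feature in all 4 libraries, a step added after the files were seen. It moved 0.0532% to 0.287% of miRNA reads, 9.42% to 17.8% of snoRNA reads and 11.3% to 29.1% of mRNA reads. miRNAs were scaled to 1000000 miRNA reads (RPM) with a minimum of 100 RPM, and the rest to 1000000 classified reads with a minimum of 10 RPM, in either library of a pair. Ratios carry conditional exact 95% binomial intervals, and differences between genotypes normal intervals. With 1 library per group no test within a genotype can be made, and a fit that takes KO and WT as replicates of the tissue contrast was not made. The calling rule was also run on counts simulated with known changes, as a check of the code whose result is not given here. That check holds counting error only and does not bear on the spread between pools.

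Genes were named by rule: the 5 largest contrasts in each direction (at least 1000 RPM for miRNAs and 20 RPM for the rest), the 5 most abundant, up to 4 per list, all tRNAs and snRNAs, and Gpx5; of these the text gives a part, and entries with only a GenBank number as values without the number. Members and lists were chosen with earlier results of these data known. RefSeq sequences of GRCm38.p6 were matched by name for 57 of 68 named miRNAs; files use mm9. Alternatives covered scaling (edgeR 4.0.16 TMM in R 4.3.3, median of ratios), bases, minimums, first bases, mismatches and the subtraction of the WT testis profile. Python 3.11.15, pandas 2.3.3, numpy 2.4.6, scipy 1.17.1 and matplotlib 3.10.9 were used.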

Additional observations from a re-analysis of the deposited data

Results flagged for a closer look

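Testis over caput was called higher in KO and lower in WT for 3 miRNAs, 5 snoRNAs, 2 snRNAs and 2 mRNA entries. Those described in the report, and class shares of opposite sign, are given here with their log2 difference, KO minus WT. With 1 library per group, none of these differences was tested. For miRNAs they were 12.83 for miR-871-3p and 3.36 for miR-486-5p. For snRNAs they were 2.34 for U1 and 3.15 for U11. For class shares they were 1.81 for mitochondrial reads, 1.29 for rRNA, 1.52 for snRNA and 0.90 for snoRNA. Without piRNA reads in the base, the WT values of U1, U11 and these 4 shares were positive, as the KO values were, so their opposite directions depended on the base. At other first bases miR-871-3p and miR-486-5p were positive in WT too.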

How the results depend on the processing

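No paired analysis was possible because each contrast, within 1 genotype, has 1 library a side, and so no replicate could be left out. A fit of tissue over both genotypes with genotype as a term was not made. Of the single features and classes under all alternatives, 879 values moved by less than their interval, 611 moved further and 41 changed sign. Counting identical sequences as deposited, and keeping sequences with a line in all 4 libraries, were chosen after seeing the data. The scaling alternatives kept the features of the main minimum, and a feature with no WT caput reads left after subtraction has no value. Counts of calls moved as follows. For miRNAs the 127 calls in KO became 252 at a minimum of 10 RPM and 48 at 1000 RPM. The 118 calls in WT became 240 and 45, and turned from mostly higher to mostly lower under TMM (105), median of ratios (102) and classified reads as the base (109). The 95 genotype differences became 155 and 51 at a minimum 5 times lower and higher, and 59 at other first bases, with 53 positive and 20 negative under TMM and 51 and 26 under median of ratios. For tRNAs the 10 calls in KO became 5 and the 11 in WT became 7 with reads of no mismatch, and the 3 differences became 6 after subtraction. For snoRNAs the 33 calls in KO became 76 without piRNA in the base, 83 with the miRNA base, 58 at 2 RPM and 8 at 50 RPM. The 36 in WT turned to mostly higher without piRNA (32) and with the miRNA base (41), and became 57 at 2 RPM and 10 at 50 RPM. The 57 differences became 17 at a minimum 5 times higher. For snRNAs the 2 calls in WT became 0 for sequences in all 4 libraries, 1 without the most abundant sequence and 1 at 50 RPM, and turned to 5 higher under both other bases. For mRNA entries the 764 calls in KO became 104 for sequences in all 4 libraries, 488 with no mismatch, 3710 at 2 RPM, 158 at 50 RPM and 301 without 24 to 32 nt reads with a first T. The 769 in WT became 94, 3377 at 2 RPM, 153 at 50 RPM and 280 without those reads. The 836 differences became 109 for sequences in all 4 libraries, 3273 and 161 at a minimum 5 times lower and higher, 324 after subtraction and 311 without those reads. The 8 class shares called in KO became 5 without the 10 most abundant sequences of each class. Values on the log2 scale that changed sign were these. In KO, TMM, median of ratios and the classified base gave -0.73, -0.80 and -0.81 for miR-191-5p and -0.35, -0.43 and -0.43 for let-7a-5p. In WT the classified base gave -0.24 for miR-191-5p and -0.053 for miR-93-5p. Other first bases gave 1.05 for miR-125a-5p in KO, and in WT 5.97 for miR-871-3p, -3.65 for miR-99b-5p, 0.11 for miR-27b-3p and 1.28 for miR-486-5p. They gave differences of 0.26 for miR-141-3p, 4.48 for miR-99b-5p, -0.18 for miR-27b-3p, 2.12 for miR-15b-5p and 0.61 for miR-125a-5p. Subtraction gave differences of -0.68 for miR-34c-5p, -0.95 for miR-465a-5p, -0.23 for miR-25-3p and -0.0040 for miR-409-3p. Without piRNA in the base and with the miRNA base, KO values were 0.081 and 0.82 for tRNA-Gln, 0.22 and 0.96 for tRNA-Met and 0.15 and 0.89 for SNORD81, and WT values were 0.20 and 0.65 for U1 and 0.18 and 0.64 for U11. The miRNA base alone gave 0.63 for tRNA-SeC in KO, and in WT 0.36 for tRNA-Leu, 0.0016 for tRNA-Met and 0.16 for tRNA-SeC. In KO, distinct sequences at equal depth gave -1.47 for mitochondrial, -2.41 for rRNA and -1.57 for snRNA shares, and leaving out the 10 most abundant sequences gave -0.16 for mitochondrial and -0.35 for rRNA shares. The cause of these changes was not tested. Depth limits the low features: tRNA-Glu rests on 13 and 20 testis reads, and Lcn5 on 2 testis reads in each genotype.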
